A study of Mus musculus with 138 samples.

Results

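The 10 genes described here are Fbxw13, Fbxw14, Fbxw15, Fbxw16, Fbxw18, Fbxw19, Fbxw20, Fbxw21, Fbxw24 and Fbxw28, an oocyte-expressed family that lies in a cluster on mouse chromosome 9. They were found by name among the gene symbols of the deposited count tables. The rule uses no measured value, but the list was drawn up with earlier results of these data known. All 10 were present, each on 1 line, among the 25900 genes of the tables.

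F-box proteins are the interchangeable part of SCF ubiquitin ligases. The F-box binds SKP1, SKP1 binds the scaffold CUL1, and RBX1 at the other end of CUL1 brings the enzyme that carries ubiquitin. In proteins named Fbxw the rest of the chain folds into WD40 repeats, which in the well studied members hold the substrate. The genes of the chromosome 9 cluster are a rodent expansion of this family whose transcripts are stored in the growing oocyte. Stored oocyte transcripts are normally cleared around the 2-cell stage in the mouse, while the embryo's own genome is switched on.

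Polyadenylated RNA was measured in mouse 2-cell embryos, 1 library per plate well, in 2 experiments on SMARCA5, the ISWI chromatin remodelling ATPase also called SNF2H. In the first, embryos with the labelled genotype Smarca5 +/-, from females with a maternal knockout mated to wild-type males, were compared with embryos labelled Smarca5 +/+. They are called maternal deletion and wild type here. The titles of both groups name the knockout females, so the titles do not tell the mothers apart, and the embryo's own genotype cannot be told apart from the loss in the egg. The Cre line and the allele behind the knockout are not given in the sources used here. In the second experiment, SMARCA5 was removed from wild-type zygotes by TrimAway, in which an injected antibody directs its target to degradation through TRIM21. The groups are embryos injected with an antibody to SMARCA5, embryos injected with IgG, and uninjected embryos, collected at least 24 h after injection. Replicate numbers name pools or collections of embryos, which the submitters call technical, so p-values measure the spread between embryos of these pools. The age and strain of the animals are not given in the sources used here.

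After libraries with under 100000 counts were left out, there were 22 wild-type, 28 maternal deletion, 15 uninjected, 20 IgG and 31 anti-SMARCA5 libraries. Total counts ran from 109007 to 12004992 in wild type, from 264566 to 8391480 in maternal deletion and from 236128 to 4139661 in the 3 TrimAway groups. The median was 545264.5 in wild type and 1618485.5 in maternal deletion. Wild-type libraries were thus mostly shallower, and at the same level a gene more often has few or 0 counts there. Smarca5 had a median of 332 CPM (counts scaled to library size) in wild type and 89.1 CPM in maternal deletion, where 24 of 28 libraries lay below the lowest wild-type library. The IgG libraries differed in Trim21, with at most 3 counts in 12 of 20, among them all 10 of replicate 1. A few libraries stood apart from their labels or groups. Well A04 of maternal deletion replicate 2 held 20.4 CPM of the oocyte growth factor Gdf9, against a group median of 4487 CPM, and 291 CPM of Smarca5. Wild-type wells G05 and H05 of replicate 2 held 602 and 265 CPM of Gdf9, against a group median of 47.8 CPM, and 147 and 158 CPM of Smarca5. The 147 CPM of well G05 is the lowest wild-type value, the one the count of 24 refers to. Of the lists of other cell types, 8 oocyte markers had a median sum of 1041 CPM in wild type and 9705 CPM in maternal deletion, and the 10 measured 2-cell markers 589 and 272 CPM. Cumulus, sperm and blood markers had median sums of at most 16.7, 2.51 and 6.67 CPM in all 5 groups, with single libraries up to 1347 CPM for blood markers in the uninjected group. The 3 wells without an embryo held 453 to 1875 counts in all and 0 to 2 counts of the 10 genes together.

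The 10 genes span 109139454 to 109702700 on chromosome 9 of GRCm38, or 563 kb, and all 10 lie on the minus strand. Fbxw21 comes first by coordinate, followed by Fbxw13, Fbxw20, Fbxw14, Fbxw28, Fbxw16, Fbxw19, Fbxw15, Fbxw24 and Fbxw18. Other Fbxw genes lie among or beside them, with Fbxw22 between Fbxw28 and Fbxw16 and Fbxw26 beyond Fbxw18. CT025661.1, which has no Fbxw symbol, lies between Fbxw24 and Fbxw18. It had at most 3 counts in 19 of 22 wild-type and 9 of 28 maternal deletion libraries. The filter on low counts left it out of the deletion test. The identifier that the tables give Fbxw14 belongs to Fbxw28 in the GENCODE vM21 annotation. The positions in the tables match the symbols, so genes were matched by symbol and position.

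The promoters are near copies of each other, which is why a few are shown with their differences. RefSeq promoter sequences of GRCm38.p6 were found for 9 of the 10 genes, the exception being Fbxw13. Below are stretches from the minus strand, 5′ to 3′, that end close to the start of Fbxw24 (the most abundant), Fbxw18 (the largest change after maternal deletion), Fbxw28, Fbxw16 (the smallest change) and Fbxw20. Capitals mark the letters CAGCTG and TTTAAA.

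Fbxw24 chr9:109626078-109626220: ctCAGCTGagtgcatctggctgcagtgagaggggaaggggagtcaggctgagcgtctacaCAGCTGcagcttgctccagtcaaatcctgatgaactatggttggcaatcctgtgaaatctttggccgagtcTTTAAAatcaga
Fbxw18 chr9:109702701-109702841: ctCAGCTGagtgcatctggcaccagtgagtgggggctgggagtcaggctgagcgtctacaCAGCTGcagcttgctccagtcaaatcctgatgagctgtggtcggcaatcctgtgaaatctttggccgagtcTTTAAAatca
Fbxw28 chr9:109339673-109339815: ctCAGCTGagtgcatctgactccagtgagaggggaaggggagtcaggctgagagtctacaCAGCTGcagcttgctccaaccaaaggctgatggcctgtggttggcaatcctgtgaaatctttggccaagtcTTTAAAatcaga
Fbxw16 chr9:109449158-109449300: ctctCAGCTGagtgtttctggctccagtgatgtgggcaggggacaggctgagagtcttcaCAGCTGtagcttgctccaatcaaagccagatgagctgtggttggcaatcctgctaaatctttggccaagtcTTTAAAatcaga
Fbxw20 chr9:109234755-109234894: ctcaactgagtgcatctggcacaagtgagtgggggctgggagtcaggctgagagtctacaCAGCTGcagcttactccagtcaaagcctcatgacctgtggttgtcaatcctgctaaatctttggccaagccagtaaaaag

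CAGCTG is one form of the E-box CANNTG, the letters bound by basic helix-loop-helix factors such as FIGLA. CANNTG, on either strand, was in the 250 bases before the start in all 9 matched genes, and in 66.22% of 32851 RefSeq promoters of that length. At least 2 sites were in all 9 genes and in 31.81% of all promoters. CAGCTG and TTTAAA were picked after these sequences had been read, so their counts are a description only. CAGCTG was found at least 2 times in 8 of the 9 promoters, against 1.26% of all promoters. Fbxw20 has it 1 time. The distance between the starts of the pair of sites was 58 bases in 6 of the 8 genes, 57 in Fbxw14 and 56 in Fbxw16. TTTAAA was in 8 of 9, all but Fbxw20, and in 12.08% of all promoters. TATAAA was in 0 of 9 (12.37% of all promoters), and so were TAATTG (7.17%) and TAATTA (4.84%), the letters of the element named for the oocyte factor NOBOX. A match or its absence says only which letters are in the window. Over the 36 pairs of promoters, identity ran from 82.9% for Fbxw16 and Fbxw20 to 96.8% for Fbxw19 and Fbxw28, with a median of 90.2%.

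The transcripts are similar too, and this bears on every count below. Coding sequences are 1392 to 1407 bases long, and their identity over 45 pairs ran from 79.7% for Fbxw24 and Fbxw28 to 99.1% for Fbxw14 and Fbxw28, with a median of 84.0%. Fbxw14 and Fbxw28 are a near-identical pair: 53.4% of the 75-base windows of Fbxw14 and 54.2% of those of Fbxw28 also occur in another gene, mostly in each other. A read from such a window cannot be placed by sequence, and how the counting treated it is not given in the sources used here. Fbxw16 shared 11.9% of its 75-base windows and Fbxw15 10.8%, mostly with the unnamed genes Gm42494 and Gm42756 that overlap them, and the strand setting of the counts is not given either. For the other 6 genes the share was at most 7.23%, and it was lowest for Fbxw24, at 0.566%.

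**Figure D1:**
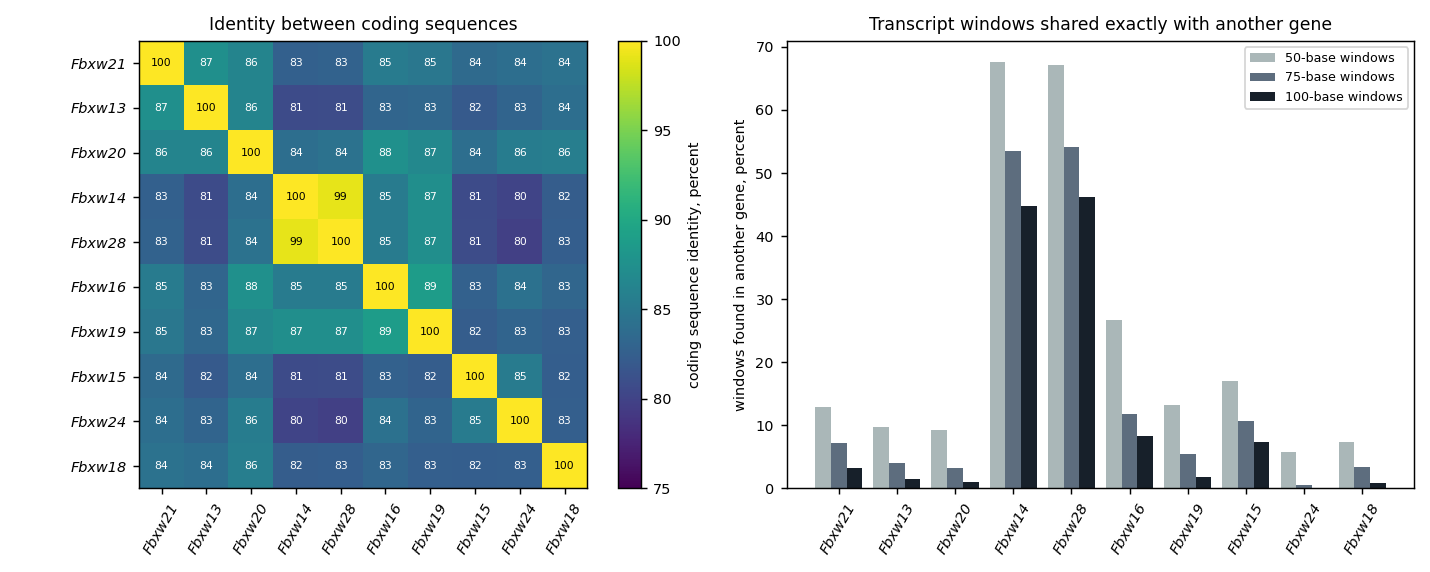
Left, identity in percent between the coding sequences of each pair of the 10 genes, in the order of their positions on the chromosome. Right, percent of windows of 50, 75 and 100 bases of each transcript that occur exactly in another annotated gene; Fbxw14 and Fbxw28 stand above the rest with over 44% at every window length.

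In wild-type embryos Fbxw24 was the most abundant of the 10 genes. Its level ran from 35.2 to 595 CPM around a median of 187 CPM over the 22 libraries. Per kilobase of transcript its median was 125, followed by Fbxw16 at 54.9, Fbxw15 at 32.1 and Fbxw19 at 20.1 CPM per kb. Fbxw18, Fbxw14 and Fbxw28 had medians of 11.9, 10.6 and 10.5 CPM per kb, and Fbxw20 and Fbxw21 of 6.75 and 5.66. Fbxw13 was near the limit of detection, with at most 3 counts in 14 of the 22 libraries and 6 of the 28 maternal deletion libraries. The wild-type libraries were shallower by median, so these counts of libraries also reflect depth. Neighbours in this order overlapped widely between libraries, and the levels of Fbxw14 and Fbxw28 depend on how shared reads were split. The 10 genes together had a median of 403 CPM in wild type (483 ± 284 CPM, SD, n = 22), of which Fbxw24 made up 42.0% of the mean and Fbxw16 18.3%.

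In the 5 groups the summed level had its highest median in maternal deletion, at 1744 CPM (2202 ± 1325, n = 28). Next came anti-SMARCA5 at 688 CPM (980 ± 766, n = 31), IgG at 513 CPM (681 ± 488, n = 20), uninjected at 444 CPM (472 ± 160, n = 15) and wild type at 403 CPM. Maternal deletion had the highest median for each of the 10 genes taken alone, and anti-SMARCA5 was second for 9 of them, all but Fbxw13. Maternal deletion and anti-SMARCA5, and likewise uninjected and wild type, come from different experiments and lanes, so these neighbours in the order were not compared by a test, and their ranges overlapped. The other 2 steps of the order, anti-SMARCA5 against IgG and IgG against uninjected, are tested below. In the main edgeR fit none of the 10 genes passed in either, while some alternative fits called a few, as given there.

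**Figure D2:**
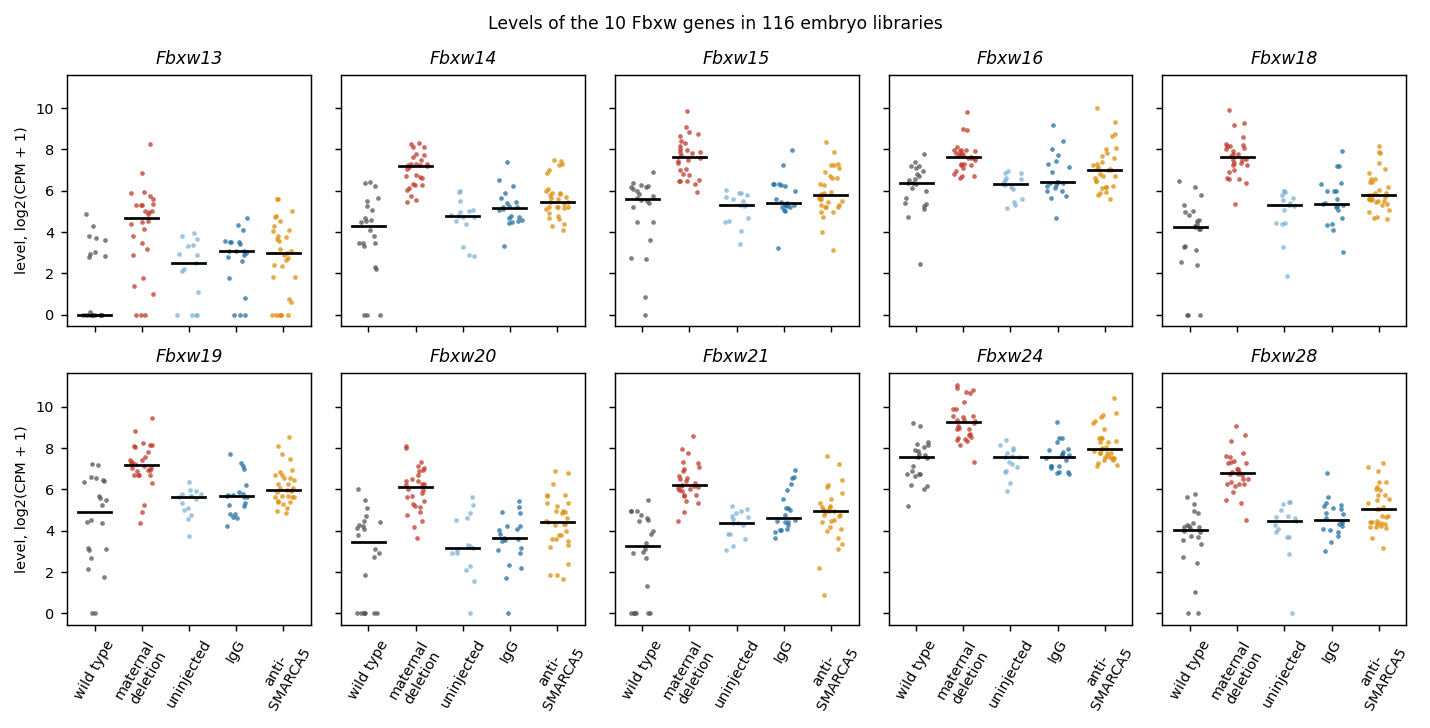
Level of each of the 10 genes in the 116 embryo libraries as log2(CPM + 1), by group; points are libraries and black lines are group medians. The median of the red maternal deletion points is the highest of the 5 in each panel, and the ranges of the groups overlap; for Fbxw16 the highest single library is an anti-SMARCA5 one, at 1023 CPM.

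After maternal deletion of Smarca5, the transcripts of the Fbxw cluster were at higher relative levels in 2-cell embryos. All 10 genes rose against wild type, by 1.39 (Fbxw16) to 3.45 (Fbxw18) on the log2 scale, in edgeR's quasi-likelihood test with Benjamini-Hochberg adjustment over the 8518 genes tested. Of all genes tested, 30.3% were called higher and 56.6% changed in either direction. The median change of the 10 genes was 2.53, against 0.18 over all genes. The difference of these medians was 2.34, and it was 2.37 when only total counts and 2.43 when DESeq2 size factors set the scale. In bulk RNA of whole embryos, more RNA per cell and more cells that hold it cannot be told apart. All these scalings set a gene against the other RNA of its library, and no absolute scale was used. More Fbxw RNA per embryo and less of other RNA therefore cannot be told apart either.

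Fbxw18 showed the largest rise. Its level was 0 to 87.8 CPM around a median of 18.1 CPM in wild type, and 39.8 to 948 CPM around 195 CPM in maternal deletion. The groups hardly overlapped, since 26 of 28 maternal deletion libraries exceeded the highest wild-type library. The log2 change was 3.45 (SE 0.47, adjusted p = 3.42e-08), and the ratio of the group means was 10.6. Its share of the summed mean level went from 4.83% in wild type to 11.3% in maternal deletion.

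Fbxw24 remained the most abundant. It ran from 159 to 2157 CPM around a median of 616 CPM in maternal deletion, 27 of 28 libraries above the wild-type median of 187 CPM and 15 above the highest wild-type library. Its log2 change was 1.96 (SE 0.29, adjusted p = 3.28e-07), with a ratio of means of 3.88.

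The Fbxw14 and Fbxw28 pair is best read as a sum. Summed, the pair ran from 5.63 to 112 CPM around a median of 36.1 CPM in wild type, and from 74.1 to 841 CPM around 256 CPM in maternal deletion. Only the upper part of the wild-type range overlapped the lowest maternal deletion libraries. The sum rose by 2.72 on the log2 scale (SE 0.31, adjusted p = 5.50e-10). Counted apart, Fbxw28 rose by 3.01 (SE 0.36) and Fbxw14 by 2.48 (SE 0.39).

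Fbxw16 rose least. It ran from 4.44 to 216 CPM around 82.2 CPM in wild type and from 98.2 to 901 CPM around 195 CPM in maternal deletion. All 28 maternal deletion libraries lay above the wild-type median, but only 11 above the highest wild-type library. The log2 change was 1.39 (SE 0.27, adjusted p = 3.45e-05), and its share of the summed mean level went from 18.3% to 10.6%.

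Fbxw15 went from a median of 48.0 CPM (0 to 119) to 200 CPM (60.4 to 916), with 20 of 28 libraries above the wild-type range and a log2 change of 2.41 (SE 0.38). Fbxw19 went from 29.8 CPM (0 to 147) to 143 CPM (19.4 to 710), a change of 2.01 (SE 0.42). Fbxw21 went from 8.55 CPM (0 to 43.4) to 72.5 CPM (21.4 to 379), and 24 of 28 libraries exceeded the wild-type range. Its change of 2.93 (SE 0.50) and that of Fbxw20, 2.57 (SE 0.52), started from low wild-type levels. Fbxw20 had medians of 10.2 CPM (0 to 63.3) and 68.4 CPM (11.6 to 277). Fbxw13, at most 28.2 CPM in wild type and up to 302 CPM in maternal deletion, rose by 3.06 with the widest error (SE 0.76, adjusted p = 0.000639).

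The rise was present in both collections of embryos. The summed level had medians of 578 CPM in wild type and 1398 CPM in maternal deletion in replicate 1, and of 346 and 1955 CPM in replicate 2. Within replicate 2, 10 of 10 genes passed, with a median change of 3.05. Within replicate 1, 9 of 9 genes tested passed, with a median of 1.85, and Fbxw13 was left out there by the filter on low counts. Leaving out well A04, or wells G05 and H05, left 10 of 10 genes called, with medians of 2.55 and 2.82. In the fit of both replicates 30.3% of all genes were called higher and 56.6% changed. The shares of all genes within each replicate are not given here, so these counts are to be read together with the median changes. The difference of the effect between the replicates was itself tested in edgeR, and 0 of 10 genes passed among 11352 tested, of which 1.08% were called. At an unadjusted p under 0.05 there was 1 gene, Fbxw21 (2.22 greater in replicate 2, adjusted p = 0.183), and DESeq2 called 0. The 2 collections were also sequenced in separate lanes, and an effect of the lane cannot be told apart from one of the collection.

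**Figure D3:**
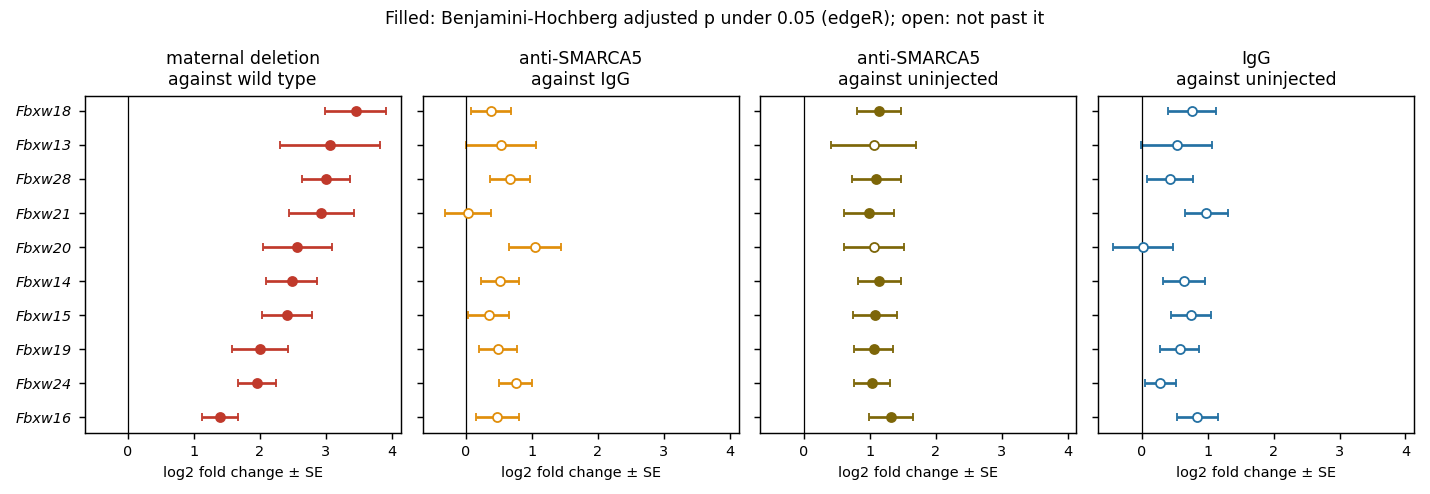
Log2 fold change ± SE of each of the 10 genes in 4 comparisons, ordered by the change after maternal deletion; filled points have an adjusted p under 0.05 in edgeR and open points do not. All 10 points are filled for maternal deletion, 8 for anti-SMARCA5 against uninjected, and none in the other 2 panels.

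Other transcripts of the oocyte were higher in the same libraries. All 8 oocyte markers rose (median 3.04). Of 33 listed oocyte transcripts, which include these 8 markers, 29 could be tested, of which 21 rose and 0 fell, with a median of 1.71. The shares over all genes were 30.3% called higher and 56.6% changed. The largest rises were those of Gdf9 (5.81), the translation regulator Zar1 (5.63) and the oocyte linker histone H1foo (4.82). Of the 2-cell markers, 8 could be tested, of which 0 rose and 5 fell. Among these, Obox3 changed by -3.87, Tdpoz1 by -2.48 and Tdpoz4 by -2.45, and Obox3 was at 0 in 23 of 28 maternal deletion libraries. The sum of the oocyte markers ran from 210 to 4037 CPM in wild type and from 472 to 30887 CPM in maternal deletion, and the sum of the 2-cell markers from 41.4 to 1748 CPM and from 0 to 1744 CPM. The part of either in the Fbxw result was not tested.

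Within a group the 10 genes and the oocyte markers did not always go together. Spearman's rho between the 2 sums was 0.77 over the 22 wild-type libraries, 0.73 over 15 uninjected, 0.67 over 31 anti-SMARCA5 and 0.38 over 20 IgG libraries, and it was -0.11 over the 28 maternal deletion libraries. With the 2-cell markers, rho was 0.79 in wild type, 0.11 in uninjected, -0.041 in IgG, -0.62 in anti-SMARCA5 and -0.21 in maternal deletion. With total counts it was -0.10 in wild type and 0.45 in maternal deletion, and 0.54 in both injected groups. Sums from the same library share its depth and scaling, so these values are a description.

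**Figure D4:**
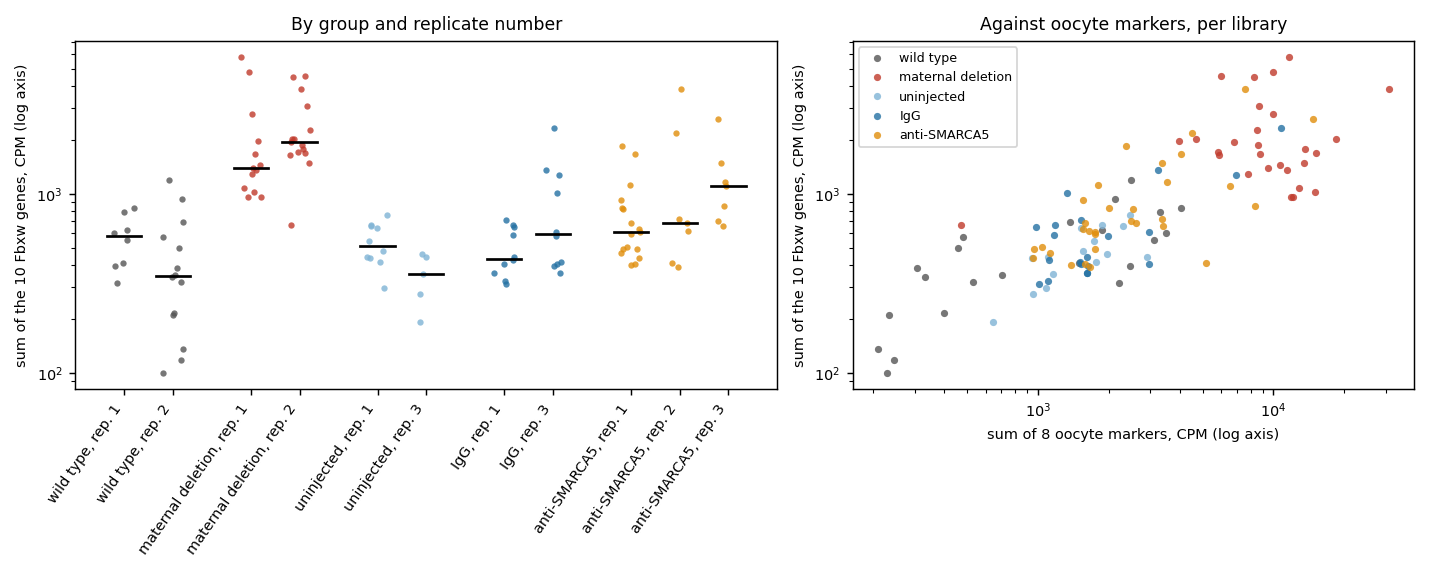
Left, sum of the 10 genes in CPM (log axis) by group and replicate number, with black lines at medians. Right, the same sum against the sum of 8 oocyte markers in CPM (both axes log), 1 point per library; the maternal deletion libraries lie to the upper right except well A04, at 666 CPM for the Fbxw genes and 472 CPM for the markers.

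Between embryos injected with the SMARCA5 antibody and IgG-injected embryos, none of the 10 genes passed the test in edgeR. The summed level ran from 388 to 3865 CPM around a median of 688 CPM after anti-SMARCA5 and from 313 to 2325 CPM around 513 CPM after IgG, so the groups overlapped over almost their whole range. In edgeR 0 of 10 genes were called (1.73% of the 10447 genes tested were called higher, 3.03% changed either way). The median log2 change was 0.50, against 0.04 over all genes. For 28 tested oocyte transcripts the median was 0.54, with 0 called. In counts simulated with the spread of these groups, the same fit called 29.5% of 95 genes changed 2-fold. The count of 0 therefore does not show that the genes were unchanged. At an unadjusted p under 0.05 there were 3 genes, Fbxw24 (0.75, SE 0.25, adjusted p = 0.0658), Fbxw20 (1.05, SE 0.39, adjusted p = 0.0922) and Fbxw28 (0.67, SE 0.31, adjusted p = 0.155). The share of all genes at that unadjusted p is not given here. Fbxw21 stood at 0.03 (SE 0.35). DESeq2 called 1 gene, Fbxw24. A fit with a term for replicate number called 2 genes, Fbxw24 (0.81, adjusted p = 0.0180) and Fbxw20 (1.10, adjusted p = 0.0416). All kept IgG libraries are of replicates 1 and 3, since the 6 of replicate 2 were too shallow. The effect did not pass a test of its difference between replicates 3 and 1 for any of the 10 genes, where 0.316% of genes were called, 0 of the 10 had an unadjusted p under 0.05 and DESeq2 called 0. Within replicate 1 the median change was 0.82 and within replicate 3 it was 0.51, with 0 genes called in each.

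Against uninjected embryos the anti-SMARCA5 embryos differed more. Of the 10 genes, 8 rose, where 17.5% of 10750 genes tested were called higher, and the exceptions were Fbxw13 (1.06, adjusted p = 0.198) and Fbxw20 (1.07, adjusted p = 0.0688). The median log2 change was 1.08, against 0.13 over all genes. Fbxw16 changed most, from a median of 80.7 CPM (34.5 to 124) in uninjected embryos to 127 CPM (47.5 to 1023), with 17 of 31 libraries above the highest uninjected library, by 1.32 on the log2 scale (SE 0.33, adjusted p = 0.00450). Fbxw24 went from 188 CPM (58.8 to 333) to 251 CPM (140 to 1361), by 1.03 (SE 0.28, adjusted p = 0.00652). The Fbxw14 and Fbxw28 sum rose by 1.13 (SE 0.31, adjusted p = 0.00705). With the replicate block 6 genes were called, as Fbxw21 (0.78, adjusted p = 0.103) and Fbxw28 (0.94, adjusted p = 0.0502) no longer passed. The count of 8 depends on the scaling and on the pools. With total counts only it was 0, where the median over all genes was -0.29 and that of the 10 genes 0.47. It was 0 without replicate 1, 2 without replicate 3, 0 within replicate 1 and 6 within replicate 3. The shares of all genes called in these other fits are not given here, so such counts do not set the 10 genes apart. In the main fit, 10 of 28 tested oocyte transcripts rose and 1 fell, with a median of 0.77.

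IgG against uninjected is the control for injection. It gave 0 of 10 genes called in edgeR, where 0% of 9915 genes were called, and DESeq2 called 1, Fbxw16 (0.89, adjusted p = 0.0466), of the 2 genes to which it gave an adjusted p, the other 8 being left without one. There were 4 genes at an unadjusted p under 0.05, Fbxw15, Fbxw16, Fbxw18 and Fbxw21, and the median log2 change was 0.60. Neither the share of all genes at that p nor the median change of all genes is given here. This count and median therefore do not set the 10 genes apart. The median of the 10 genes reversed between pools, at -0.078 without replicate 3, with 5 of 10 genes above 0, and 1.43 without replicate 1. All 10 IgG libraries of replicate 1 had at most 3 counts of Trim21, and the part of this in the difference was not tested. For Fbxw21 the 3 comparisons stood at 0.98 for IgG against uninjected, 0.99 for anti-SMARCA5 against uninjected and 0.03 for anti-SMARCA5 against IgG. For Fbxw24 they stood at 0.28, 1.03 and 0.75. The comparisons share their control libraries, so these values are not independent of each other.

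Whether the effects against uninjected embryos differed between pools was tested for replicates 3 and 1. The change of anti-SMARCA5 against uninjected was greater in replicate 3 than in replicate 1 by 1.86 for Fbxw14 (SE 0.64, adjusted p = 0.0497) and by 1.70 for Fbxw24 (SE 0.47, adjusted p = 0.0158), 2 of the 10 genes, where 3.85% of 12981 genes were called in that direction. With no filter on low counts 1 gene passed. For IgG against uninjected 0 of 10 genes passed the same test, 7 of them at an unadjusted p under 0.05, among 12282 genes of which 0.0163% were called, and DESeq2 called 0. That 0.0163% is at the adjusted p, and the share of all genes at the unadjusted p is not given here. The uninjected libraries had median sums of 510 CPM in replicate 1 (n = 10) and 356 CPM in replicate 3 (n = 5). The IgG libraries had 435 and 596 CPM, and the anti-SMARCA5 libraries 613, 682 and 1102 CPM in replicates 1, 2 and 3. The order of the 2 pools was thus the reverse in uninjected embryos of that in both injected groups.

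In replicate 3, 2 libraries stood above the others of the same group and replicate. IgG well A04 had a sum of 2325 CPM, with 10740 CPM of oocyte markers and 117 CPM of 2-cell markers, and anti-SMARCA5 well A05 had 2602 CPM, with 14765 and 54.9 CPM. Both values for oocyte markers were the highest of all IgG and of all anti-SMARCA5 libraries, while the highest Fbxw sum of the anti-SMARCA5 libraries, 3865 CPM, was in replicate 2. Without these 2 libraries, anti-SMARCA5 against IgG gave 1 gene, Fbxw24 (0.85, adjusted p = 0.0306), anti-SMARCA5 against uninjected 7 and IgG against uninjected 0.

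For most of the 10 genes the deletion effect was larger than the anti-SMARCA5 against IgG effect. In 1 fit of maternal deletion, wild type, anti-SMARCA5 and IgG, the deletion effect exceeded the anti-SMARCA5 against IgG effect for 8 of 10 genes, where 10.5% of 12035 genes were called in that direction. With the replicate block it was 6, since Fbxw13 (2.35, adjusted p = 0.0841) and Fbxw19 (1.36, adjusted p = 0.0545) no longer passed. Fbxw18 had the largest difference, 3.00 (SE 0.53, adjusted p = 1.18e-05), followed by Fbxw21 at 2.84 (SE 0.58, adjusted p = 0.000218), Fbxw13 at 2.49 (SE 0.89, adjusted p = 0.0366) and Fbxw28 at 2.27 (SE 0.45, adjusted p = 0.000131). Fbxw15, Fbxw14, Fbxw19 and Fbxw24 differed by 2.01, 1.91, 1.45 and 1.14. Fbxw20 (1.44, SE 0.62, adjusted p = 0.0841) and Fbxw16 (0.86, SE 0.42, adjusted p = 0.137) did not pass. Fewer genes were also called when a replicate was left out. The same direction was seen in oocyte transcripts outside the 10 genes, whose own median difference was 1.96. Of the 8 oocyte markers 6 were called higher and 0 lower, with a median of 2.59. Of 30 tested oocyte transcripts, which include the markers, 14 were called higher and 0 lower, with a median of 1.18. The difference is thus not particular to the Fbxw genes. The 2 experiments were on different lanes, so experiment and lane cannot be told apart. Trim21 was at most 3 counts in 12 of 20 IgG libraries and 1 of 31 anti-SMARCA5 libraries. The anti-SMARCA5 against IgG effect therefore also holds a difference in Trim21, whose part was not tested.

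Other Fbxw genes of the cluster, outside the 10, showed like values. Fbxw22 went from a median of 15.8 CPM in wild type to 61.5 CPM in maternal deletion, a rise of 1.79 (SE 0.56, adjusted p = 0.00615). Fbxw26 had at most 3 counts in 19 of 22 wild-type libraries and a median of 36.0 CPM in maternal deletion, a rise of 3.59 (SE 0.71, adjusted p = 3.52e-05). Its promoter carries CAGCTG 2 times, 58 bases apart, as in most of the 10 genes.

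Within 500 kb of the cluster the tables hold 28 genes that are not Fbxw genes, with CT025661.1 inside the cluster left out of this count. Of these 12 could be tested, of which 2 rose and 4 fell after maternal deletion, with a median of -0.89, a share called that is near the 56.6% of all genes. Shisa5, an endoplasmic reticulum membrane protein, rose by 3.81 (adjusted p = 3.08e-06) and Prkar2a, a regulatory subunit of protein kinase A, by 1.40 (adjusted p = 3.71e-06). Uqcrc1, a core protein of respiratory complex III, changed by -2.53 and Smarcc1, a subunit of the BAF remodellers, by -2.36. Arih2, a ubiquitin ligase that works with cullin complexes, changed by -1.87 and Ccdc72 by -1.57.

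**Figure D5:**
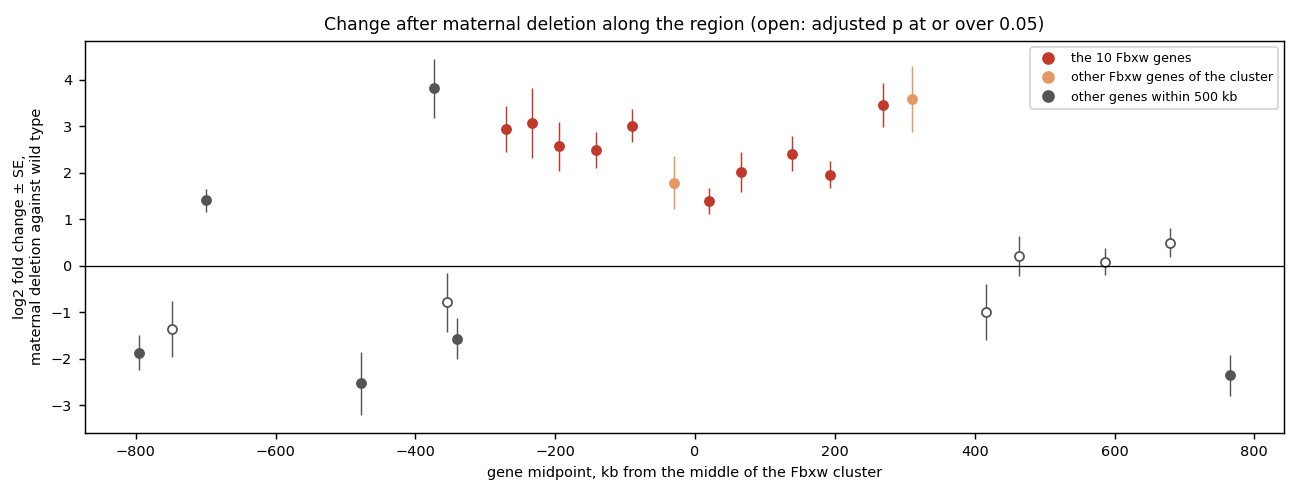
Log2 fold change ± SE after maternal deletion against the position of each tested gene, in kb from the middle of the Fbxw cluster; red, the 10 genes, orange, Fbxw22 and Fbxw26, grey, other genes within 500 kb of the cluster, open where the adjusted p is at or over 0.05. The Fbxw genes lie between 1.39 and 3.59, while the grey genes lie on both sides of 0.

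The partners of F-box proteins did not move as 1 group. No list median of this paragraph for maternal deletion changed sign under the other scalings tried. Of 17 tested genes of the SCF core and the neddylation machinery that switches cullins on, 6 rose and 4 fell after maternal deletion, with a median of 0.71. These shares are near those of all genes tested, of which 30.3% were higher and 56.6% changed, and are no result about the list. Skp1a, which encodes the adaptor that all F-box proteins bind, rose by 1.91 (adjusted p = 3.39e-06). Rises were also seen for the scaffold Cul1 (0.94), the neddylation co-ligase Dcun1d1 (1.76) and the NEDD8 protease Senp8 (2.62). Rbx1 (-0.61), the exchange factor Cand1 (-0.76), Dcun1d3 (-1.65) and the COP9 signalosome subunit Cops6 (-1.86) fell. Of the F-box and WD40 genes outside the cluster, 3 of 7 tested were higher and 2 lower, with a median of -0.12. Fbxw5 (2.74), Fbxw7 (1.39), the receptor for cyclin E and MYC, and Fbxw4 (1.13) rose, and Fbxw9 (-2.60) and Fbxw2 (-1.20) fell. Of 8 other F-box genes, 1 rose and 4 fell (median -0.48): Fbxl14 (1.53) rose, and Fbxo15 (-2.89), Ccnf (-2.80), the APC inhibitor Fbxo5, also called EMI1 (-2.01), and Skp2 (-0.92) fell. Both of these lists are short. Beside the 30.3% higher and 56.6% changed of all genes, their counts are no result about the lists either. In anti-SMARCA5 against IgG, 0 of 17 SCF genes tested rose and 1 fell, where 1.73% of all genes were called higher and 3.03% either way. Against uninjected 5 of 18 rose, where 17.5% of all genes were called higher, and 2 fell. The last count turned over with total counts only, to 1 higher and 4 lower, and the median of these 18 genes went from 0.45 to -0.13.

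From embryo to embryo the 10 genes went up and down together to a moderate degree. Over the 45 pairs, the mean of the within-group Spearman correlations of log2(CPM + 1) over the 5 groups and 116 libraries ran from 0.24 to 0.74, with a median of 0.48. Fbxw24 (0.82) and Fbxw14 (0.79) were closest to the sum of the other 9 genes and Fbxw13 (0.40) least close. All genes of a library share its depth and scaling, so these values are a description. Among 7663 other genes with a mean log2 CPM of at least 4, the likeness to the sum of the 10 had a median of -0.017, with the middle 90% between -0.41 and 0.43. The 5 most alike were Nrp1 (0.67), Rchy1 (0.66), Ermp1 (0.65), 2700029M09Rik (0.64) and Ms4a1 (0.63). For Nrp1, a receptor for semaphorins and VEGF, rho was 0.57 to 0.89 in the 5 groups, and for Ermp1 0.19 in maternal deletion and 0.69 to 0.85 in the others. With Pearson's correlation 2 of these 5 were again among the top 5. The oocyte transcripts Nlrp5 and Gdf9 had 0.48 and 0.42, Zp3 had -0.35 and Smarca5 -0.06.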

How the data were processed

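RNA of 2-cell embryos was measured with the RNA part of scNMT-seq. The deposited values are read counts, 1 table for each experiment, in whole numbers that had not been normalized. Per the submitters' processing notes, reads were trimmed with Trim Galore 0.6.5 and cutadapt 2.3 and aligned with HISAT2 2.1.0 to GRCm38. The annotation release, strand setting, and handling of duplicates and of reads matching several places are not given in the sources used here. In the kept libraries counts of 1 and 3 (134662 and 84269 table cells) outnumbered counts of 2 and 4 (30228 and 23199), for a reason not given there, so counting error can exceed that of single reads. Lines of the same identifier (57 of them) were summed. Of 135 embryo libraries, 116 had at least 100000 counts and were kept; 19 were left out.

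Gene counts were compared in edgeR 4.0.16 (R 4.3.3) over all genes, with TMM scaling, filterByExpr and the robust quasi-likelihood F test, called at a Benjamini-Hochberg adjusted p under 0.05. SE is the log2 change over the root of F. Levels are CPM on TMM-scaled totals over the 116 libraries. DESeq2 1.42.0, other scalings and filters, the replicate block and left-out replicates or libraries were alternatives. The scripts were tested on counts simulated with the spread of these libraries. In anti-SMARCA5 against IgG, 29.5% of 95 genes changed 2-fold were called, and 88.2% of 93 changed 4-fold. In maternal deletion against wild type the shares were 10.8% of 93 and 61.1% of 95, where 7625 of 7813 genes were left unchanged. In the measured deletion fit 56.6% of genes were called, and the adjusted p depends on that share. The 10.8% and 61.1% therefore do not give the share found in that fit, which was not tested. In anti-SMARCA5 against IgG, genes not called may have changed by such amounts. Genes not called in the deletion fit may also have changed. The replicate number names pools that the labels tie to both groups. Deviations of same-numbered means correlated by 0.53 for deletion, 0.60 for anti-SMARCA5 against IgG, 0.08 for anti-SMARCA5 against uninjected and 0.43 for IgG against uninjected, over 2 shared numbers each. The genes named were the 10 genes, the other Fbxw genes within 1 Mb, called genes within 500 kb, up to 3 rises and 3 falls of each list, and the 5 genes most alike, all with an average log2 CPM of 4 or more. Rbx1, Cul1, the other cell-type markers and the added oocyte genes were named after their values were seen. The members and lists were chosen with earlier results of these data known.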

Additional observations from a re-analysis of the deposited data

Results flagged for a closer look

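In IgG replicate 3 (10 libraries), the library of well A04 had a summed level of the 10 Fbxw genes of 2325 CPM, and the next was at 1355 CPM. In anti-SMARCA5 replicate 3 (7 libraries), the library of well A05 had 2602 CPM, and the next was at 1492 CPM. Each gap was larger, relative to the range of its group, than Dixon's 95% critical value for its number of libraries. In all, 7 sets of libraries were examined at both ends, and chance alone passes this value in about 1 in 20 groups. These libraries also had the highest oocyte marker sums of their groups, 10740 and 14765 CPM, and the part of that in their Fbxw levels was not tested.

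The change of anti-SMARCA5 against uninjected differed between replicates 3 and 1, by an interaction term in edgeR, for Fbxw14 (1.86) and Fbxw24 (1.70). The test was added after the data had been seen, and uninjected replicate 3 holds 5 libraries. The deletion effect exceeded the TrimAway effect (anti-SMARCA5 against IgG), by a contrast of the 4 groups in 1 fit, for Fbxw18 (3.00), Fbxw21 (2.84), Fbxw13 (2.49), Fbxw28 (2.27), Fbxw15 (2.01), Fbxw14 (1.91), Fbxw19 (1.45) and Fbxw24 (1.14).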

How the results depend on the processing

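For maternal deletion against wild type, all 121 values of the 10 genes under the alternatives kept their direction and an adjusted p under 0.05, the highest being 0.0197. Their median change was 3.05 without replicate 1 and 1.85 without replicate 2, where Fbxw13 was filtered out. In anti-SMARCA5 against IgG the count of 0 called genes became 1 with DESeq2, with no filter on low counts, with all libraries that had counts and, chosen after seeing the data, without the 2 outlying libraries of replicate 3. It became 2 with the replicate block, and ran from 0 to 1 over the fits that leave out a replicate. In anti-SMARCA5 against uninjected the 8 called genes became 0 with total counts only, 0 within replicate 1 alone (added after seeing the data), and 0 to 8 when replicates were left out. The replicate block gave 6 there, 6 in place of 8 for the deletion effect minus the TrimAway effect, and 10 for the deletion, so it ended the call for 2 genes in each of the first pair. IgG against uninjected gave 1 with DESeq2, which left 8 of the 10 genes without an adjusted p, and its median change reversed to -0.078 without replicate 3, against 1.43 without replicate 1. The 2 genes whose anti-SMARCA5 against uninjected effect differed between replicates became 1 with no filter on low counts. For the deletion effect minus the TrimAway effect, 5 to 6 of 10 genes were called when a replicate was left out. The cause of these shifts was not tested, apart from the smaller number of libraries in the fits that leave some out. Shares of all genes called under these alternatives are not given here, so the counts do not set the 10 genes apart. Summing lines per gene changed nothing, since each of the 10 genes has 1 line. Depth limits Fbxw13 most, with 0 counts common in wild type.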
